A study of Canis lupus familiaris with 8 samples.

Results

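The miRNAs miR-101 and miR-26 were followed in the serum of Doberman Pinschers with and without dilated cardiomyopathy (DCM). The members were the array names miR-101, miR-101a, miR-101b, miR-101c, miR-26a and miR-26b in their canine (cfa) or murine (mmu) listing, star names apart. Of 1224 miRNA names on the array, 7 met this rule, 3 of them canine (cfa-miR-101, cfa-miR-26a and cfa-miR-26b) and 4 murine (mmu-miR-101a, mmu-miR-101b, mmu-miR-101c and mmu-miR-26b). A murine listing of miR-26a was not analysed here. Serum RNA of 8 client-owned Doberman Pinschers was labelled with Cy3 and measured on 8 one-colour arrays of the same slide. The DCM group held 4 dogs, labelled DoCM5 to DoCM8, which were in the occult stage of the disease and received heart medication (pimobendan, an ACE inhibitor and an antiarrhythmic drug). The control group held 4 healthy dogs, labelled Con1 to Con4. The labels give an age of 7 to 11 years for all dogs, while the methods describe a younger dog among those with DCM. Disease and medication cannot be told apart in this design.

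EZH2 is the catalytic subunit of polycomb repressive complex 2, which silences genes by methylating histone H3 at lysine residues of their chromatin. miR-101 and miR-26a are both known to bind the messenger RNA of EZH2 and to lower its translation. In the heart, miR-101 has been studied as a brake on fibroblast activation, and miR-26 as a regulator of ion channels and of fibrosis. In the dog gene table, MIR26A-1, MIR26A-2 and MIR26B lie within the spans of CTDSPL, CTDSP2 and CTDSP1, genes for small phosphatases of RNA polymerase II, and MIR101-2 lies within RCL1. The arrays measured miRNAs, and EZH2 itself was not measured. Serum holds RNA released by many tissues, so that more releasing cells and more release per cell cannot be told apart.

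The signal was a fluorescence intensity per feature, with the background subtracted, and each name had 40 features, for the 7 members 20 for each of 2 probes. Features entered the analysis if at least 2 arrays of either group had them well above background, and 438 of the 1224 names had at least 1 kept feature and are called detected. Mean signals per name were normalized between arrays with the vsn model, which gives values on a generalized log2 scale (glog2) that equals log2 at high signal. Between 10817 and 14000 features per array were well above background. DoCM5 stood apart, since its correlation with the rest across the 438 names had a median of 0.924, against 0.957 to 0.968 for the remaining arrays. The study's methods left out a sample named DoCM8, and the numbers in the labels may not match those of the methods. The study describes that sample as one of raised miRNA signals and of low correlation with the others. Before normalization, DoCM5 had the highest median log2 signal of the kept features, 5.80, against 4.74 on DoCM8 and 4.31 to 5.53 on all arrays other than DoCM5. The array labelled DoCM5 thus had the lowest correlation and the highest median signal, but it stood apart by correlation only. Con3 came next in median signal at 5.53, and had 14000 features well above background against 12712 on DoCM5. The main comparison nevertheless followed the name and left out DoCM8 (3 DCM and 4 control arrays), and the group differences are given beside those of all 8 arrays and of the 7 arrays without DoCM5. The 2 rows of the slide each held a single group, and slide row and disease cannot be told apart.

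Among the members, 6 of 7 listings were detected, 3 of miR-101 and 3 of miR-26, and each had all 40 features kept. The exception was mmu-miR-101b, for which 0 of 320 features over the 8 arrays were well above background. Its mean intensity lay between -0.28 and 0.061 on the 8 arrays. Among the 5 star names of miR-101 and miR-26, which denote the opposite strand of the hairpin, 1 had a kept feature. This was mmu-miR-26b*, with 9 of 40 features well above background on DoCM5 and at most 1 on any other array. Its kept feature, 1 of 40, was highest on DoCM8, however, with a glog2 value of 6.35 against 2.57 on DoCM5. Over all its features not flagged as outliers, the mean intensity was 0.21 on DoCM8 and 3.17 on DoCM5. No feature of the array was saturated.

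miR-101 was measured by 3 detected listings whose names denote closely related mature sequences. The glog2 value of cfa-miR-101 was 7.12 on DoCM5, 7.49 on DoCM6, 7.07 on DoCM7 and 7.91 on DoCM8. In the control dogs it was 6.90 on Con1, 6.28 on Con2, 7.39 on Con3 and 6.44 on Con4. DoCM8 and DoCM6 were above every control array, while DoCM5 and DoCM7 lay below Con3, and the groups overlapped. The value of mmu-miR-101a was 7.02, 7.36, 6.92 and 7.50 on DoCM5 to DoCM8, and 6.76, 6.19, 7.29 and 6.46 on Con1 to Con4. That of mmu-miR-101c was 6.58, 6.95, 6.56 and 7.42 on DoCM5 to DoCM8, and 6.38, 5.74, 6.84 and 5.85 on Con1 to Con4. The order of the arrays was the same in the 3 listings, from DoCM8 as the highest through DoCM6 and Con3 to Con2 as the lowest.

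miR-26 showed another pattern, with 1 high array. The glog2 value of cfa-miR-26a was 6.16 on DoCM5, but 4.02 on DoCM6, 4.62 on DoCM7 and 4.55 on DoCM8. In the control dogs it was 4.79, 4.57, 4.47 and 4.12 on Con1 to Con4. Apart from DoCM5, no DCM array was above the highest control array, and DoCM6 was the lowest of all 8. The value of cfa-miR-26b was 9.74, 7.67, 8.17 and 8.14 on DoCM5 to DoCM8, and 8.22, 7.61, 8.15 and 8.04 on Con1 to Con4. That of mmu-miR-26b was 10.01, 8.17, 8.66 and 8.75 on DoCM5 to DoCM8, and 8.69, 8.04, 8.57 and 8.57 on Con1 to Con4. DoCM5 was the highest array in each of the 3 listings, and the other 3 DCM arrays lay within or close to the range of the control arrays.

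**Figure D1:**
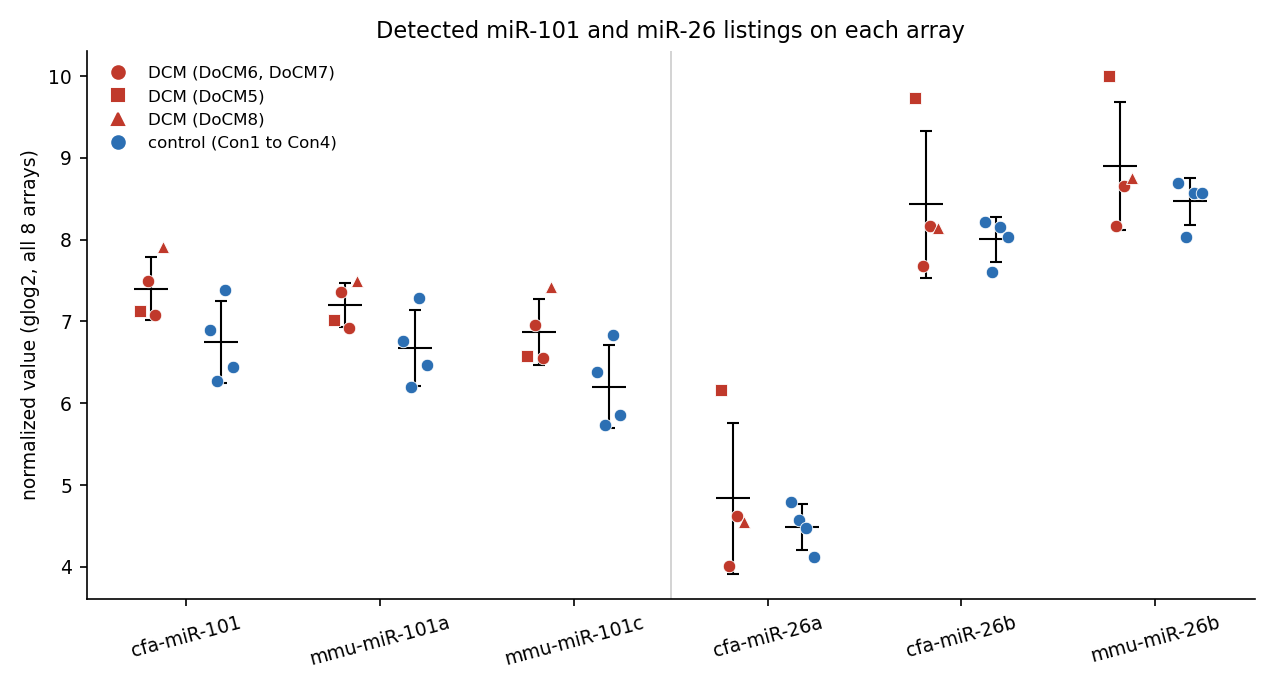
Normalized values (glog2, all 8 arrays normalized together) of the 6 detected listings. Each point is 1 array, red for DCM (squares DoCM5, triangles DoCM8) and blue for control, and horizontal lines with bars give the group mean and SD (n = 4 arrays each). DoCM5 is the highest point in each miR-26 listing (6.16 for cfa-miR-26a), while DoCM8 is the highest point in each miR-101 listing (7.91 for cfa-miR-101). Heights of different listings rest on different probes and are not compared.

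The high miR-26 values of DoCM5 were visible in the signals before normalization. The mean intensity of cfa-miR-26b was 2133 on DoCM5 and between 146.2 and 461.4 on the other arrays. The intensity of cfa-miR-26a was 174.8 on DoCM5 and between 14.9 and 38.4 elsewhere. DoCM5 was a bright array as a whole, and its miR-101 signals were raised too, but by less. For cfa-miR-101 the intensity was 344.8 on DoCM5 and between 59.6 and 272.7 on the others. Relative to the median of the other 7 arrays, DoCM5 was 9.27-fold for cfa-miR-26b, 8.89-fold for cfa-miR-26a and 7.96-fold for mmu-miR-26b, against 2.20-fold for cfa-miR-101, 2.26-fold for mmu-miR-101a and 2.13-fold for mmu-miR-101c. After scaling each array to the 75th percentile of the features detected on all arrays, the ratios were 2.83, 2.51 and 2.41 for the miR-26 listings in the same order. They were 0.81, 0.84 and 0.78 for the miR-101 listings.

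Normalized values set the members among all detected names. On DoCM5, cfa-miR-26b lay 1.73 above its mean on the other 7 arrays, and 13 of 438 names (itself included) deviated upwards by at least as much. For cfa-miR-26a the deviation was 1.71 (14 names) and for mmu-miR-26b it was 1.51 (21 names). The deviation of the miR-101 listings on the same array was between 0.042 and 0.096, near the median of all names of -0.046. On DoCM8 the families changed places. There cfa-miR-101 lay 0.95 above its mean on the other arrays (12 of 438 names at least as high), mmu-miR-101c 1.002 (9 names) and mmu-miR-101a 0.64 (34 names). The miR-26 listings on DoCM8 deviated by -0.12 to 0.082. These positions describe single dogs and carry no test.

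**Figure D2:**
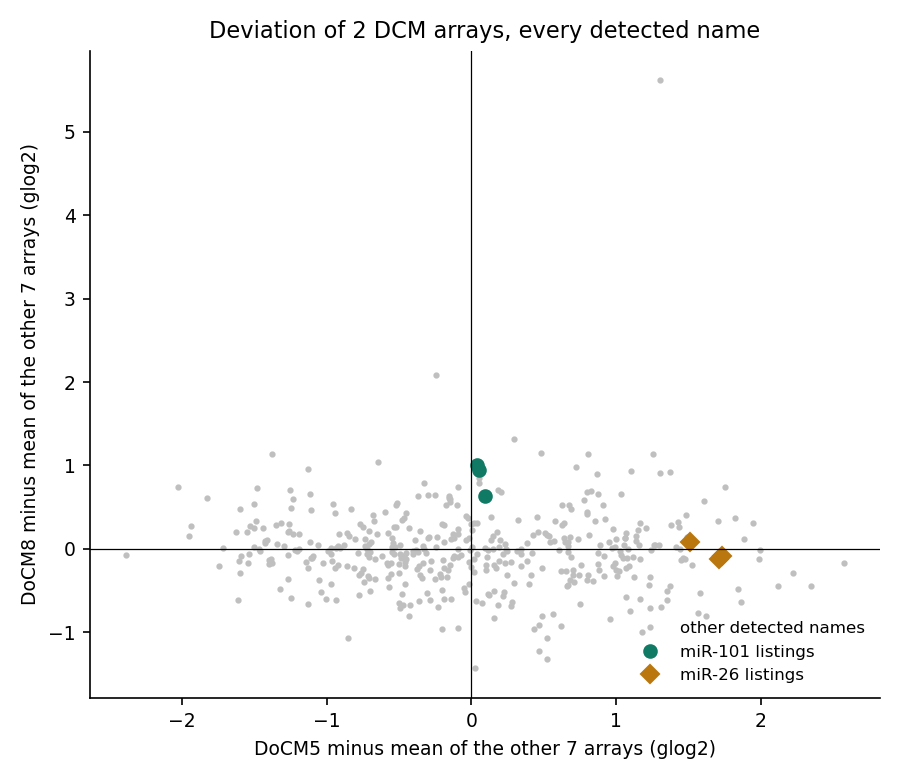
Deviation of DoCM5 (horizontal axis) and DoCM8 (vertical axis) from the mean of the respective other 7 arrays, in glog2, with 1 point for each of the 438 detected names. The 3 miR-26 listings (diamonds) lie at 1.51 to 1.73 on the DoCM5 axis and near 0 on the DoCM8 axis, and the 3 miR-101 listings (circles) lie near 0 for DoCM5 and at 0.64 to 1.002 for DoCM8.

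The first comparison asked whether serum levels differed between DCM and control dogs. Over the 7 arrays without DoCM8, cfa-miR-101 had a glog2 value of 7.23 ± 0.24 (SD over 3 arrays) in DCM and 6.78 ± 0.50 (SD over 4 arrays) in control dogs. The log2 fold change was 0.46 (standard error 0.36, 95% interval -0.33 to 1.25, limma p = 0.229; exact permutation test, two-sided p = 0.2). The other miR-101 listings gave 0.41 (mmu-miR-101a, standard error 0.35) and 0.47 (mmu-miR-101c, standard error 0.36). For the miR-26 listings, cfa-miR-26a was at 4.94 ± 1.10 (SD over 3 arrays) in DCM and 4.51 ± 0.28 (SD over 4 arrays) in control dogs. Its log2 fold change was 0.43 (standard error 0.47, 95% interval -0.60 to 1.46, limma p = 0.382; exact permutation test, two-sided p = 0.6). The values were 0.50 (standard error 0.46) for cfa-miR-26b and 0.46 (standard error 0.44) for mmu-miR-26b. The 95% intervals of all 6 differences included 0. None of the 6 members passed both limits of the study's methods, an unadjusted limma p under 0.05 with a fold change over 1.5, which 12 of 438 names (2.74%) passed on these arrays. The median log2 fold change of the 6 members was 0.46, beside -0.0032 over all 438 names. It was 0.48 over all 8 arrays and 0.32 over the 7 arrays without DoCM5. Listings of the same miRNA followed each other across the arrays, so that the 6 are not independent. On the 7 arrays without DoCM8 the groups overlapped for each of the 6, while every DCM array was above every control array for 12 of 438 names (2.74%). Names with every DCM array below every control array were not counted in this share, here or in the other sets.

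Over all 8 arrays, the difference was larger for miR-101 and smaller for miR-26. The log2 fold change of cfa-miR-101 was 0.65 (standard error 0.33, limma p = 0.0723; exact permutation test, two-sided p = 0.114). The listing mmu-miR-101c gave 0.67 (standard error 0.33, limma p = 0.0656) and mmu-miR-101a gave 0.53 (standard error 0.31, limma p = 0.113), each with an exact permutation p of 0.114. For the miR-26 listings it was 0.35 (cfa-miR-26a), 0.43 (cfa-miR-26b) and 0.43 (mmu-miR-26b), with standard errors of 0.38 to 0.42. None of the 6 passed both limits, beside 18 of 438 names (4.11%), and none was free of overlap, beside 7 names (1.6%) with every DCM array above every control array.

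Without DoCM5 and with DoCM8, the estimates were larger for miR-101 and near 0 for miR-26. The glog2 value of cfa-miR-101, in a normalization of these 7 arrays, was 7.38 ± 0.39 (SD over 3 arrays) in DCM and 6.65 ± 0.47 (SD over 4 arrays) in control dogs. Its log2 fold change of 0.73 (standard error 0.30, 95% interval 0.063 to 1.40, limma p = 0.0353; exact permutation test, two-sided p = 0.114) passed both limits, as did that of mmu-miR-101c at 0.76 (standard error 0.30, 95% interval 0.084 to 1.44, limma p = 0.0317; exact permutation test, two-sided p = 0.114). The third listing, mmu-miR-101a, was at 0.58 (standard error 0.27, limma p = 0.0596; exact permutation test, two-sided p = 0.114) and did not pass. The miR-26 listings were near 0, at -0.083 for cfa-miR-26a (standard error 0.22, 95% interval -0.59 to 0.42), -0.0027 for cfa-miR-26b (standard error 0.22, 95% interval -0.50 to 0.49) and 0.065 for mmu-miR-26b (standard error 0.23, 95% interval -0.45 to 0.58). The 2 members past both limits stood beside 19 of 438 names (4.34%), of which 8 were higher and 11 lower in DCM. These 2 listings had a Pearson r of 0.999 across the 8 arrays and are not independent results. Again each member overlapped between the groups, beside 12 of 438 names (2.74%) with every DCM array above every control array. After Benjamini-Hochberg adjustment of the limma p over all 438 names, no name passed 0.05 in any of the 3 sets of arrays (0%), where 12, 19 and 29 names had an unadjusted limma p under 0.05. The adjusted p of cfa-miR-101 was 0.997, 0.956 and 0.678 in the 3 sets. With the plain two-sample statistic in place of limma, 0 names passed the adjusted limit without DoCM8 and 18 had an unadjusted p under 0.05.

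**Figure D3:**
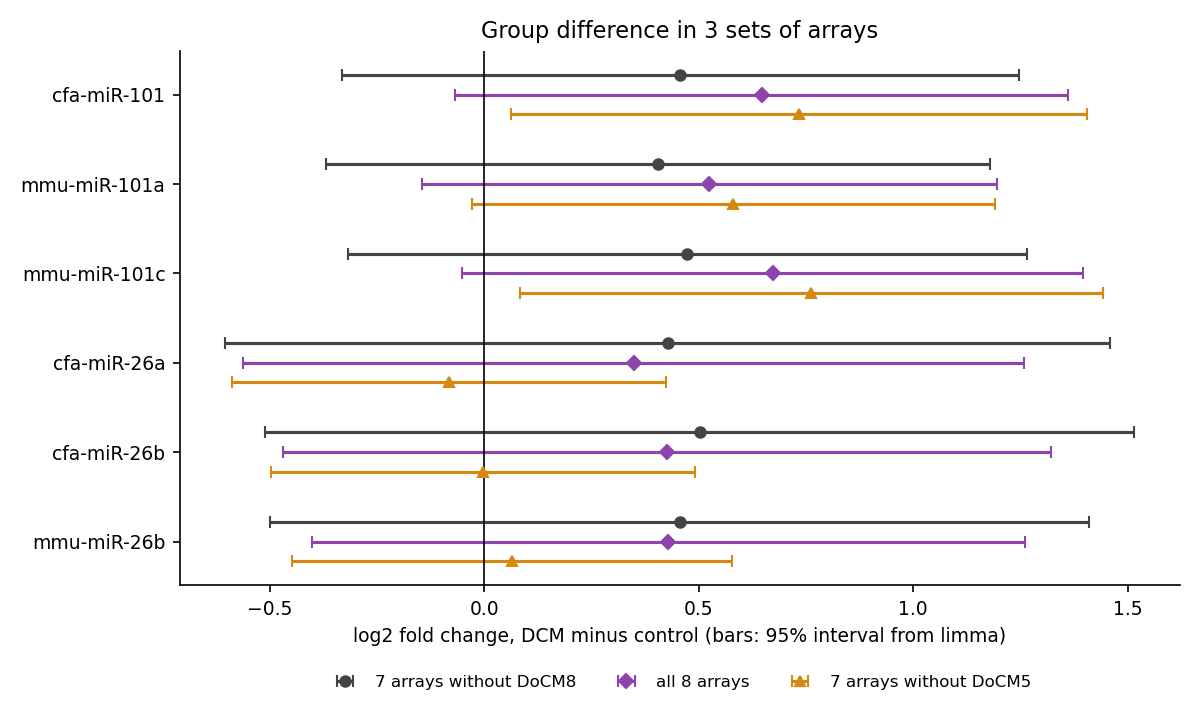
Log2 fold change (DCM minus control) of the 6 detected listings from limma, with 95% intervals, for 7 arrays without DoCM8 (circles), all 8 arrays (diamonds) and 7 arrays without DoCM5 (triangles). The intervals of cfa-miR-101 and mmu-miR-101c exclude 0 in the set without DoCM5 and in neither of the other 2 sets, and the miR-26 estimates move from 0.43 to 0.50 without DoCM8 to -0.083 to 0.065 without DoCM5.

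Whether the group difference of miR-101 differed from that of miR-26 was tested on the difference between the families within each array, the mean glog2 value of the 3 miR-101 listings minus that of the 3 miR-26 listings. It was -1.73 on DoCM5, 0.65 on DoCM6, -0.30 on DoCM7 and 0.46 on DoCM8. On Con1 to Con4 it was -0.55, -0.67, 0.11 and -0.66. DoCM6 and DoCM8 were the highest of the 8 arrays and DoCM5 was the lowest, so that the DCM dogs spanned a wider range than the control dogs. Over the 7 arrays without DoCM8, the DCM mean minus the control mean was -0.016 (exact permutation test, two-sided p = 1). It was 0.21 over all 8 arrays (exact permutation test, two-sided p = 0.743) and 0.70 without DoCM5 (exact permutation test, two-sided p = 0.0857). The smallest p that such a test can give is 0.0286 for these group sizes. No difference between the families was detected by this test.

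**Figure D4:**
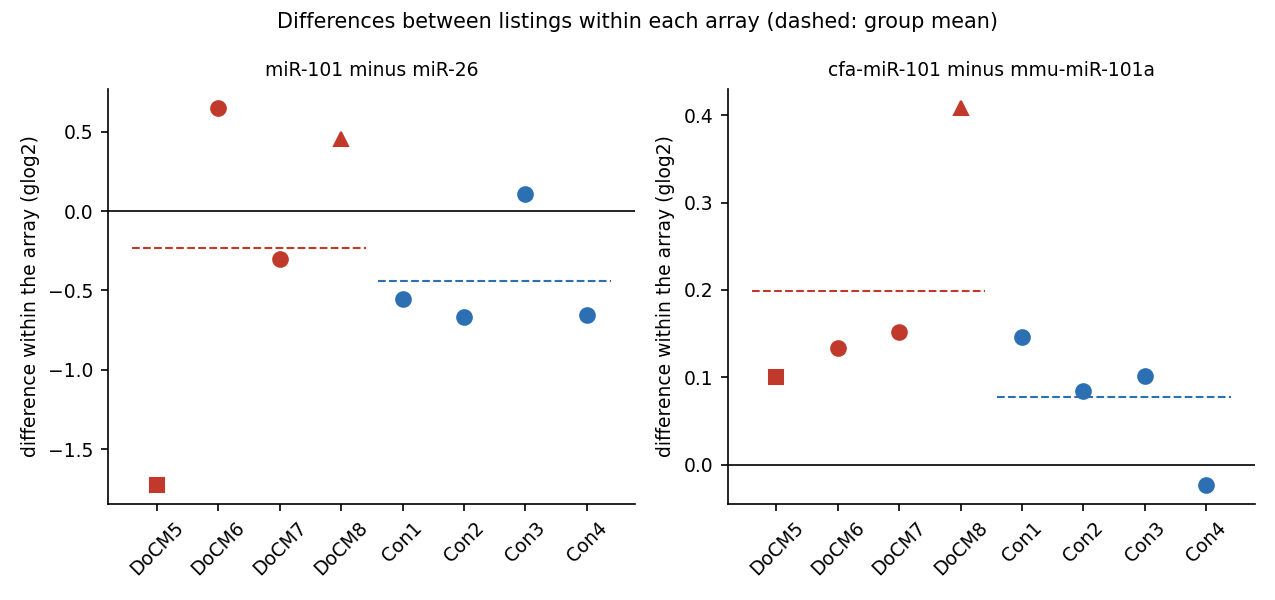
Differences between listings within each array, in glog2, for the mean of miR-101 minus the mean of miR-26 (left) and for cfa-miR-101 minus mmu-miR-101a (right). Points are arrays (red DCM, with a square for DoCM5 and a triangle for DoCM8; blue control) and dashed lines are group means over 4 arrays. DoCM5 is lowest on the left at -1.73, and DoCM8 is highest on the right at 0.41.

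The isoform probes of miR-101 were compared with each other. The value of cfa-miR-101 minus that of mmu-miR-101c lay between 0.49 and 0.55 on the DCM arrays and between 0.52 and 0.59 on the control arrays. This canine and this murine listing thus moved together to within 0.030 (SD over 8 arrays). The DCM mean minus the control mean of this difference was -0.016 over the 7 arrays without DoCM8 (exact permutation test, two-sided p = 0.457), -0.026 over all 8 arrays (exact permutation test, two-sided p = 0.257) and -0.029 without DoCM5 (exact permutation test, two-sided p = 0.286). The third listing departed from them most on DoCM8. The value of cfa-miR-101 minus that of mmu-miR-101a was 0.10, 0.13 and 0.15 on DoCM5, DoCM6 and DoCM7, and between -0.023 and 0.15 on the control arrays, but 0.41 on DoCM8. In mean intensity, cfa-miR-101 was 1.32 times mmu-miR-101a on DoCM8 and 0.98 to 1.11 times on the other 7 arrays. Each listing rested on 2 probes, and all 4 probe pairs of cfa-miR-101 over mmu-miR-101a gave a ratio on DoCM8 outside the range of the other 7 arrays, 1.20 to 1.25 times their median. The same held for all 4 pairs of mmu-miR-101c over mmu-miR-101a, at 1.23 to 1.32 times the median. For every probe pair, the highest and the lowest array lie outside the range of the others by construction. The number of pairs outside therefore shows no departure by itself. Con4 was the lowest array for 4 of 4 pairs of cfa-miR-101 over mmu-miR-101a (0.89 to 0.93 times the median). It was also the lowest for 3 of 4 pairs of mmu-miR-101c over mmu-miR-101a (all 4 at 0.90 to 0.97 times). The other pairs of listings are given beside these. The ratio of cfa-miR-101 over mmu-miR-101c was outside for 3 of 4 probe pairs on Con2 (0.97 to 1.07 times the median over all 4). On DoCM8 it was outside for 2 of 4 (all 4 at 0.94 to 0.999 times). On DoCM5 it was outside for 2 of 4 (all 4 at 1.001 to 1.05 times), and on DoCM7 for 1 of 4. The ratio of cfa-miR-26b over mmu-miR-26b was outside for 4 of 4 on DoCM5 (1.08 to 1.27 times). It was outside for 3 of 4 on DoCM8 (all 4 at 0.83 to 0.92 times) and for 1 of 4 on Con4. The group difference of cfa-miR-101 minus mmu-miR-101a was 0.052 without DoCM8 (exact permutation test, two-sided p = 0.286), 0.12 over all 8 arrays (exact permutation test, two-sided p = 0.143) and 0.15 without DoCM5 (exact permutation test, two-sided p = 0.0857). This pair was chosen after the value of DoCM8 had been seen. Whether the listings share labelled RNA through cross-hybridization was not tested.

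The probes within each listing gave closely similar patterns. The ratio of the brighter to the dimmer probe of cfa-miR-101 lay between 1.09 and 1.16 on the 8 arrays, that of mmu-miR-101a between 1.02 and 1.07 and that of mmu-miR-101c between 1.91 and 2.05. For miR-26 the ratio was 3.33 to 3.85 (cfa-miR-26a), 1.91 to 2.30 (cfa-miR-26b) and 1.21 to 1.36 (mmu-miR-26b). The lowest ratio of cfa-miR-26b, 1.91, was that of DoCM5. The coefficient of variation over the 20 features of a probe had a median over the arrays of 3.5% to 6.3% for miR-101 and for both miR-26b listings. It was 8.6% for the brighter and 14.2% for the dimmer probe of cfa-miR-26a, and 13 of 20 features of that dimmer probe were well above background on the weakest array.

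The paralogs miR-26a and miR-26b come from separate genes. The value of cfa-miR-26a minus that of cfa-miR-26b lay between -3.66 and -3.56 on the DCM arrays, DoCM5 included, and between -3.92 and -3.04 on the control arrays. Over the 7 arrays without DoCM8 the DCM mean minus the control mean was -0.075 (exact permutation test, two-sided p = 0.743). It was -0.078 over all 8 arrays and -0.080 without DoCM5 (exact permutation tests, two-sided p = 0.714 in both). On DoCM5 itself this difference was -3.57, within the range of the other arrays. The canine minus the murine miR-26b listing was -0.27 on DoCM5 and between -0.61 and -0.41 on the other arrays.

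Across the 8 arrays, the listings of miR-101 followed each other. Of 15 pairs of members, cfa-miR-101 and mmu-miR-101c had a Pearson r of 0.999 and a Spearman rho of 1 (exact permutation tests, p = 2.5e-05, adjusted over the pairs 0.00012, and p = 5.0e-05, adjusted 0.00025). For cfa-miR-101 and mmu-miR-101a, r was 0.985 and rho was 1, with the same p from the exact permutation tests. Without the 2 arrays farthest from the median of cfa-miR-101 (Con2 and DoCM8), r was 0.998 and 0.990. The listings of miR-26b also followed each other, with an r of 0.993 (exact permutation test, p = 0.00062, adjusted 0.0023) and a rho of 0.857 (exact permutation test, p = 0.0107, adjusted 0.0402), and an r of 0.950 without Con2 and DoCM5. For cfa-miR-26a and cfa-miR-26b, r was 0.927 (exact permutation test, p = 0.0113, adjusted 0.0340) and rho was 0.738 (exact permutation test, p = 0.0458, adjusted 0.138). Without DoCM5 and DoCM6 the r of this pair was 0.159, and the relation rested on those arrays. All values share the normalization of the 8 arrays, and closely related listings may share labelled RNA.

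Between the families no relation was detectable. The r of cfa-miR-101 with cfa-miR-26a was 0.018 (exact permutation test, p = 0.963, adjusted 0.978) and rho was -0.262 (exact permutation test, p = 0.536, adjusted 0.671). The r of cfa-miR-101 with cfa-miR-26b was 0.147 (exact permutation test, p = 0.715, adjusted 0.894) and rho was 0.143 (exact permutation test, p = 0.752, adjusted 0.752). Without Con2 and DoCM8 these r were 0.042 and -0.044. The 9 pairs between the families had r between 0.013 and 0.226.

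The names with the pattern most like that of a member were found by the Pearson r over the 8 arrays, among 432 detected names other than the members. For cfa-miR-101 they were mmu-miR-144 (r = 0.890), a miRNA of erythroid cells, cfa-miR-29b (r = 0.885), known for targeting collagen genes, and cfa-miR-218 (r = 0.875). Without DoCM5 these r were 0.914, 0.885 and 0.933. The names nearest to cfa-miR-26a were cfa-miR-30e (r = 0.934), mmu-miR-126-3p (r = 0.928), which is abundant in endothelium and platelets, and cfa-miR-151 (r = 0.926). Without DoCM5 they were 0.529, 0.837 and 0.416. These names were picked as the highest of many and are a description. Among them, cfa-miR-218 had low glog2 values of 1.20 to 3.08, and cfa-miR-30e of 2.93 to 4.29 with 22 features kept.

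**Figure D5:**
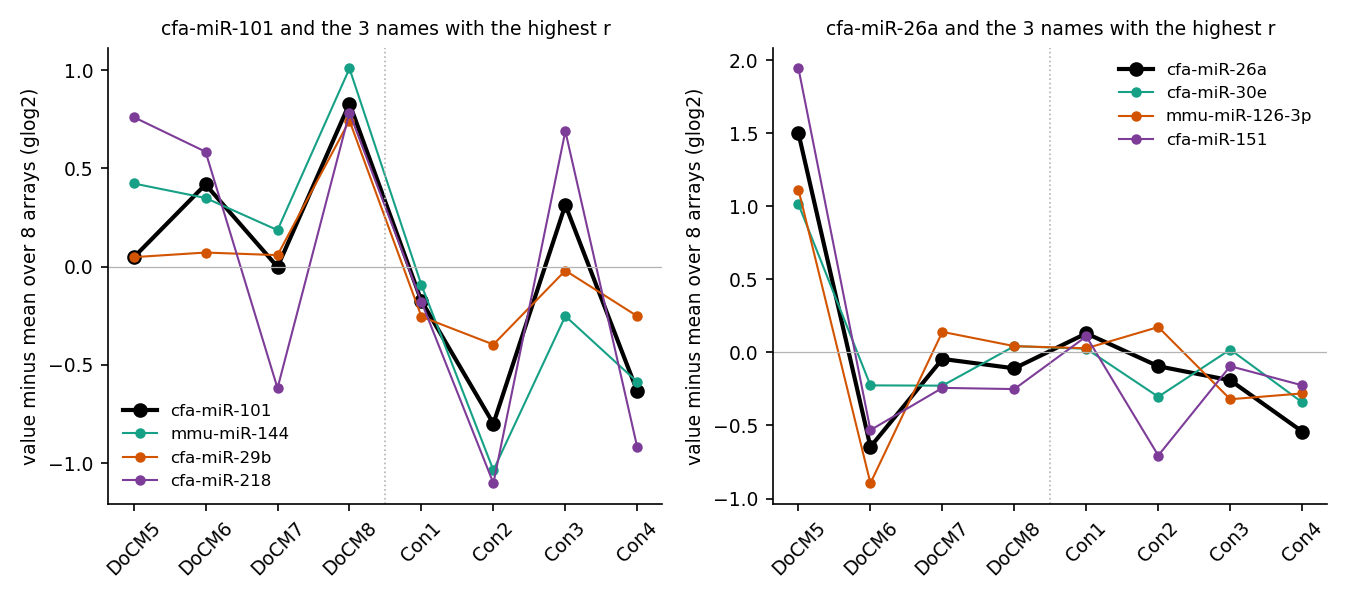
Normalized values (glog2) minus the mean over the 8 arrays for cfa-miR-101 (left) and cfa-miR-26a (right), each with the 3 detected names of highest Pearson r. Lines join the values of 1 miRNA and imply no order of the arrays, and the dotted line parts DCM from control. cfa-miR-101 and mmu-miR-144 are both highest on DoCM8 and lowest on Con2, while cfa-miR-26a and its nearest names are highest on DoCM5.

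Erythroid miRNAs were set beside miR-101. The erythrocyte list held 3 listings (cfa-miR-451, cfa-miR-144 and mmu-miR-144; miR-486 was not analysed here), and all 3 were detected. Their summed scaled intensity was 95995 to 189645 in the DCM group and 119978 to 160795 in the control group, and was carried by cfa-miR-451. The glog2 value of mmu-miR-144 was 9.38, 9.30, 9.14 and 9.96 on DoCM5 to DoCM8 and 8.86, 7.92, 8.70 and 8.37 on Con1 to Con4, with every DCM array above every control array, as for 7 of 438 names (1.6%) on all 8 arrays. Its log2 fold change was 0.79 without DoCM8, 0.98 over all 8 arrays and 1.01 without DoCM5, and passed both limits in each set, as did 2.74%, 4.11% and 4.34% of all names in the same order. For cfa-miR-144 it was 0.58, 0.76 and 0.68, past both limits over all 8 arrays and not in the other sets. The log2 fold change of cfa-miR-451, the most abundant red cell miRNA, was -0.037, 0.052 and 0.22 in the same sets, past the limits in none. The part of red cell RNA in the miR-101 values was not tested.

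Endothelial and platelet miRNAs were set beside miR-26. All 4 listings were detected, and their summed scaled intensity was 540.8 to 1455 in the DCM group, with the highest value on DoCM5 and the lowest on DoCM6, and 692.9 to 796.6 in the control group. The glog2 value of mmu-miR-126-3p was 9.56 on DoCM5, 7.55 on DoCM6 and between 8.13 and 8.62 on the control arrays. This bright listing had been picked above as near to cfa-miR-26a. The other 3 were also highest on DoCM5, at 6.24 (cfa-miR-126), 6.63 (cfa-miR-221) and 8.74 (mmu-miR-221), but lowest on Con4 (cfa-miR-126, 4.89) or DoCM7 (cfa-miR-221, 5.10; mmu-miR-221, 7.35). Of all 438 detected names, 135 (30.8%) were highest on DoCM5. None of the 4 endothelial and platelet listings passed both limits in any of the 3 sets. The share of all detected names that passed was 2.74%, 4.11% and 4.34% without DoCM8, with all 8 arrays and without DoCM5. All 6 leukocyte listings were detected, with a summed scaled intensity of 5458 (DoCM5) to 11518 in DCM and 8004 to 10511 in control, and 1 of them, mmu-miR-142-3p, passed both limits in each of the 3 sets, against the same shares of all names. Of the 5 heart and muscle listings 2 were detected, with sums of 58.7 to 82.6 in DCM and 42.1 to 69.4 in control, and neither passed both limits in any set. The heart miRNAs cfa-miR-208a and cfa-miR-208b and the muscle miRNA cfa-miR-133a were not detected. Outside the list, 5 other listings of these muscle families were detected (cfa-miR-133b, cfa-miR-133c, cfa-miR-206, mmu-miR-1a and mmu-miR-208a-5p). The part of these cells in the miR-26 values was not tested.

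Other miRNAs reported to target EZH2 (miR-138, miR-214, miR-124, let-7a, miR-98, miR-217, miR-25, miR-30d and miR-144) had 14 listings on the array, of which 9 were detected. Over the 7 arrays without DoCM8, 1 of the 9 was past both limits, mmu-miR-144, which was higher in DCM, and 0 were lower, beside 12 of 438 names (2.74%) past the limits in either direction. Over all 8 arrays, 2 of the 9 were higher (mmu-miR-144 and cfa-miR-144), beside 18 of 438 (4.11%). Without DoCM5 it was mmu-miR-144 again, beside 19 of 438 (4.34%). The median log2 fold change of the 9 was 0.11, 0.20 and -0.070 in the 3 sets, beside -0.0032, -0.00021 and -0.0018 over all names. The glog2 value of cfa-miR-25 was 11.66 on DoCM5, 10.63 to 10.81 on the other DCM arrays and 10.53 to 11.14 on the control arrays. For cfa-let-7a it was 8.94 on DoCM5, 7.66 to 7.92 on the other DCM arrays and 7.64 to 8.07 on the control arrays. Of the 9 detected listings, 5 were highest on DoCM5 (these and cfa-miR-98, cfa-miR-30d and mmu-miR-30d), 2 on DoCM8 (both of miR-144) and 2 on Con1 (cfa-miR-138a and cfa-miR-214). Over all 438 detected names, 135 (30.8%) were highest on DoCM5 and 27 (6.16%) on DoCM8.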

How the data were processed

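Serum miRNAs of 4 DCM and 4 control dogs were measured on 8 one-colour arrays. The authors deposited an intensity per feature from Agilent Feature Extraction 10.7.3.1, with the background subtracted and not normalized between arrays, and a table of the same intensity values. Control features were dropped, as were outlier-flagged features on the array concerned. The mean per name was normalized by the vsn model in an own implementation (trimming quantile 0.9, with 7 iterations over 5 slices). Groups were compared with limma 3.58.1 in R 4.3.3 over all detected names, with Benjamini-Hochberg adjustment, and single values with exact two-sided permutation tests. The procedure was tested on simulated data. Intensities scaled to the 75th percentile served for sums. Other array sets, normalizations, signal columns, filters and tests were tried as alternatives. The members and lists were chosen with earlier results of these data known. The names were to include miRNAs that share a seed with a member, and this was not used here. Gene positions came from the table of UU_Cfam_GSD_1.0, and the array's design names canFam2, so no coordinates are given. The number of arrays limits the precision. Figures were drawn with matplotlib 3.10.9.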

Additional observations from a re-analysis of the deposited data

Results flagged for a closer look

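In 24 groups of 4 arrays (the 6 members and 6 within-array differences, in each group of dogs), 2 held a value that stood farther from its neighbour than Dixon's 95% critical value allows. Chance flags about 1 in 20 groups, which is 1.2 of 24. The 24 groups are not independent, however, since the differences are built from the same members. The difference of cfa-miR-101 minus mmu-miR-101a was 0.41 on DoCM8 and between 0.10 and 0.15 on the other DCM arrays. This pair was chosen after its value on DoCM8 had been seen, so its flag cannot be set against the number expected by chance. The difference of miR-101 minus miR-26 was 0.11 on Con3 and between -0.67 and -0.55 on the other control arrays. The high miR-26 values of DoCM5 did not exceed the critical value.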

How the results depend on the processing

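In the main comparison, 12 of 438 names passed both limits. The number was 19 without DoCM5 in place of DoCM8, 34 with all 8 arrays weighted and 3 with normexp and quantile normalization. It was 44 of 1224 without the filter on dim features and 7 of 349 with at least 50% of the features kept. With 1 array well above background it was 27 of 987. Each array of the main comparison was also left out in turn, so that all values with each array left out lack DoCM8 as well. The number then ran from 10 to 30 (30 without DoCM6 and DoCM8, 29 without DoCM5 and DoCM8). The log2 fold change of cfa-miR-101 passed both limits without DoCM5 (0.73) and with array weights (0.77), as did that of mmu-miR-101c (0.76 and 0.81). All 3 miR-101 listings were positive under every alternative run, cfa-miR-101 from 0.35 to 0.80 and, with each array left out, from 0.32 to 0.68. Scaling to the 75th percentile of the features detected on all arrays moved the median log2 fold change of all names from -0.0032 to -0.22, and relative to that median cfa-miR-101 was at 0.71 and cfa-miR-26a at 0.64. The sign of miR-26 turned without DoCM5 (cfa-miR-26a -0.083, cfa-miR-26b -0.0027) and, for cfa-miR-26a, with array weights (-0.00032). With each array left out, cfa-miR-26a ran from -0.15 to 0.91, cfa-miR-26b from -0.075 to 0.96 and mmu-miR-26b from -0.048 to 0.87. The lowest value of each was the one without both DoCM5 and DoCM8. The difference of miR-101 minus miR-26 turned from -0.016 to 0.21 (all 8 arrays), 0.70 (without DoCM5), 0.10 (quantile), 0.029 (normexp) and 0.11 (median over features). With each array left out it ran from -0.57 to 0.61, being positive without DoCM5 and DoCM8 (0.61) and without Con3 and DoCM8 (0.17). That of cfa-miR-101 minus mmu-miR-101c turned from -0.016 to 0.099 (quantile), 0.052 (normexp), 0.080 (median over features) and 0.0050 (1 array well above background), and that of cfa-miR-26a minus cfa-miR-26b ran from -0.21 to 0.076 with each array left out. The r of cfa-miR-101 with cfa-miR-26a turned to -0.14 (75th percentile), -0.035 (without DoCM5) and -0.22 (centred on group means) and was 0.48 without the filter on dim features (exact permutation test, p = 0.236), while that of cfa-miR-26a with cfa-miR-26b was 0.48 without DoCM5. The cause of these shifts was not tested. No paired analysis by replicate number was possible because no number occurs in both groups. With the slide column as a block, which pairs arrays by position and not dogs, 13 names passed both limits, and the log2 fold changes of the members lay between 0.30 and 0.51, past the limits for none. Signal over background limits cfa-miR-26a, with 33 of 40 features well above background on Con4.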
